A study of Homo sapiens with 12 samples.

Results

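The signals of 9 genes were followed in K562 cells, a human chronic myeloid leukemia cell line that carries the BCR-ABL1 fusion. The genes were BCR and ABL1, which form the fusion, and ABL2, KIT, PDGFRA, PDGFRB, DDR1, CSF1R and NQO2, which encode other proteins known to bind imatinib or nilotinib. Members were all probe sets whose platform annotation names one of these genes, which gave 15 of 22277 probe sets on the array. BCR had 2 probe sets, PDGFRA had 3, DDR1 had 4 and each of the others had 1. The 12 arrays fell into 3 groups of 4, from cells given nilotinib at 0.05 µM, imatinib at 0.5 µM or DMSO, the solvent control, for 24 h. All groups share this 1 cell line. Separate cultures behind the 4 arrays of a group are not stated in the labels, and the p-values cover no more than the variation among these arrays, possibly technical. The doses of the drugs differ, so a difference between them is one between these 2 treatments and not between the molecules at a matched dose.

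BCR-ABL1 arises from a translocation that joins the first part of BCR to most of ABL1 and places the fused gene under the BCR promoter. The fused tyrosine kinase is always active, and imatinib and nilotinib hold its ABL kinase domain in an inactive form. ABL2 is the close relative of ABL1. KIT, PDGFRA, PDGFRB and CSF1R are receptor tyrosine kinases for secreted growth factors, DDR1 is a receptor tyrosine kinase for collagen, and NQO2 is a flavin enzyme that reduces quinones and is the best known target of imatinib outside the kinases. A probe set reads transcript and not kinase activity. The positions of the probes were not used here, so signal from normal BCR or ABL1 transcripts and from the fusion cannot be told apart.

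Promoter sequences are shown for NQO2, the member with the strongest difference between drug and DMSO, and for BCR, whose promoter also drives the fusion. They are the 250 bases before the annotated start, from RefSeq on GRCh38.p14, printed 5′ to 3′ on the strand of the gene, with each GC box (GGGCGG on either strand, a site bound by SP1 family factors) in capitals. NQO2 lies at chr6:2999644-2999893 on the + strand and BCR at chr22:23180259-23180508 on the + strand.
NQO2: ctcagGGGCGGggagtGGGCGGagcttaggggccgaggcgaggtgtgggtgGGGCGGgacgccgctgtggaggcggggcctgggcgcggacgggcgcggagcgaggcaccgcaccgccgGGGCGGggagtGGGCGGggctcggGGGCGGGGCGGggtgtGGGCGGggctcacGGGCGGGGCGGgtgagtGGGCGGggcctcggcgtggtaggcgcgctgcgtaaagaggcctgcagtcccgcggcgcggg
BCR: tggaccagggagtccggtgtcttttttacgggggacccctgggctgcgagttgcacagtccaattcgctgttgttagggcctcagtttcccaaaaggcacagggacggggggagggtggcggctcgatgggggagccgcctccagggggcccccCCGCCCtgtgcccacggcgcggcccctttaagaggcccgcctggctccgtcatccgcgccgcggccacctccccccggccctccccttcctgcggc
The NQO2 stretch held 81.6% G and C and the BCR stretch 70.8%, where the median of all 35116 promoters in the table was 58%. The NQO2 stretch held 11 matches to the GC box, overlapping ones included, and 0.0769% of all promoters held as many. The BCR stretch held 1 match, and 42.6% of promoters held at least 1. The letters TGACNNNGC, the core of the antioxidant response element, occurred once in the BCR stretch and not in the NQO2 stretch, and were found in 10.9% of promoters on either strand. The MYC E-box, the palindrome CACGTG, was found in neither stretch and in 6.34% of promoters. The TATA box, searched as TATAAA on both strands, was in neither and in 10.7% of promoters. The STAT5 site TTCNNNGAA was in neither and in 6.57% of promoters. The forkhead site GTAAACA and the GATA site AGATAA, on both strands, were in neither and in 2.98% and 9.17% of promoters.

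The arrays differed in ways that bear on dim members. Every array had a trimmed mean signal between 500.136 and 500.163, but the median signal was 179 ± 12.1 in nilotinib arrays, 142 ± 8.72 in imatinib arrays and 119 ± 2.15 in DMSO arrays (SD, n = 4 each). The median of 27 control probe sets for bacterial transcripts, which gauge background, was 18.2 ± 5.35, 12.2 ± 4.54 and 7.06 ± 1.31 in the same order. Arrays of either drug lay above all DMSO arrays in both measures, with an exact two-sided permutation p of 0.0286, the smallest that 4 against 4 can give, and an adjusted p of 0.0514 over 9 tests. The actin control gave a ratio of 3′ to 5′ signal above 3.5 on 4 arrays, nilotinib 1 and 2 and imatinib 5 and 6. The erythroid markers fixed for K562 exceeded the highest bacterial control on all arrays in 5 of 5 genes that the array reads, and their summed signal was 18929 to 20873 in nilotinib arrays, 17017 to 19275 in imatinib arrays and 4916 to 5387 in DMSO arrays. Of the monocyte markers CD14 did not exceed 19.4 on any array, while LYZ was at 1650 to 2336, 1960 to 2656 and 2790 to 3075 in the same order of groups. Fibroblast markers were mixed. LUM did not exceed 7.34, but COL1A1 was at 204 to 427, 169 to 379 and 153 to 341 in that order. DCN was at 184 to 282, 83.7 to 220 and 102 to 156. Lymphocyte markers, 3 of 4 past the filter, summed to 326 to 782, 225 to 631 and 505 to 617, and fibroblast markers, 2 of 5 past the filter, to 655 to 749, 306 to 658 and 336 to 553. No mast cell marker of 3 on the array passed the filter. All arrays are labelled as this 1 cell line, so signals of these markers were not read as other cell types. Whether any other cells were present was not tested. In bulk RNA, fewer cells with a transcript and less of it per cell cannot be told apart.

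Of the 15 member probe sets, 8 passed a filter at the 40th percentile of mean log2 signal (a signal of about 80.6). They name BCR, ABL1, KIT, DDR1 and NQO2, and each lay above the filter level and above the highest bacterial control on all 12 arrays. Fold changes are differences of mean log2(signal + 16), tested with limma over all 13329 probe sets past the filter with Benjamini-Hochberg adjustment, and a probe set was called at an adjusted p under 0.05. Against DMSO, nilotinib had 6 members higher, 1 lower and 1 not called of 8 tested, where 55.5% of all tested probe sets were called, 33.9% higher and 21.5% lower. Imatinib also had 6 members higher, 1 lower and 1 not called, where 35.5% of all were called, 20.0% higher and 15.5% lower. Of the 6 higher, 4 were the probe sets of 1 gene, DDR1, so the calls fell on 4 genes. Groups did not overlap in 7 of the 8 with nilotinib and in 5 of the 8 with imatinib, where 48.5% and 36.5% of all tested probe sets did not. The median fold change of the tested members was 0.59 for nilotinib and 0.40 for imatinib on the log2 scale, beside 0.17 and 0.10 over all tested probe sets. The 4 DDR1 probe sets are among these 8 and weigh on this median and on the counts of groups that did not overlap. The other members were at 0.45 (BCR), 0.36 (ABL1), 0.29 (KIT) and -1.78 (NQO2) for nilotinib. For imatinib they were at 0.39, 0.34, 0.06 and -1.66.

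**Figure D1:**
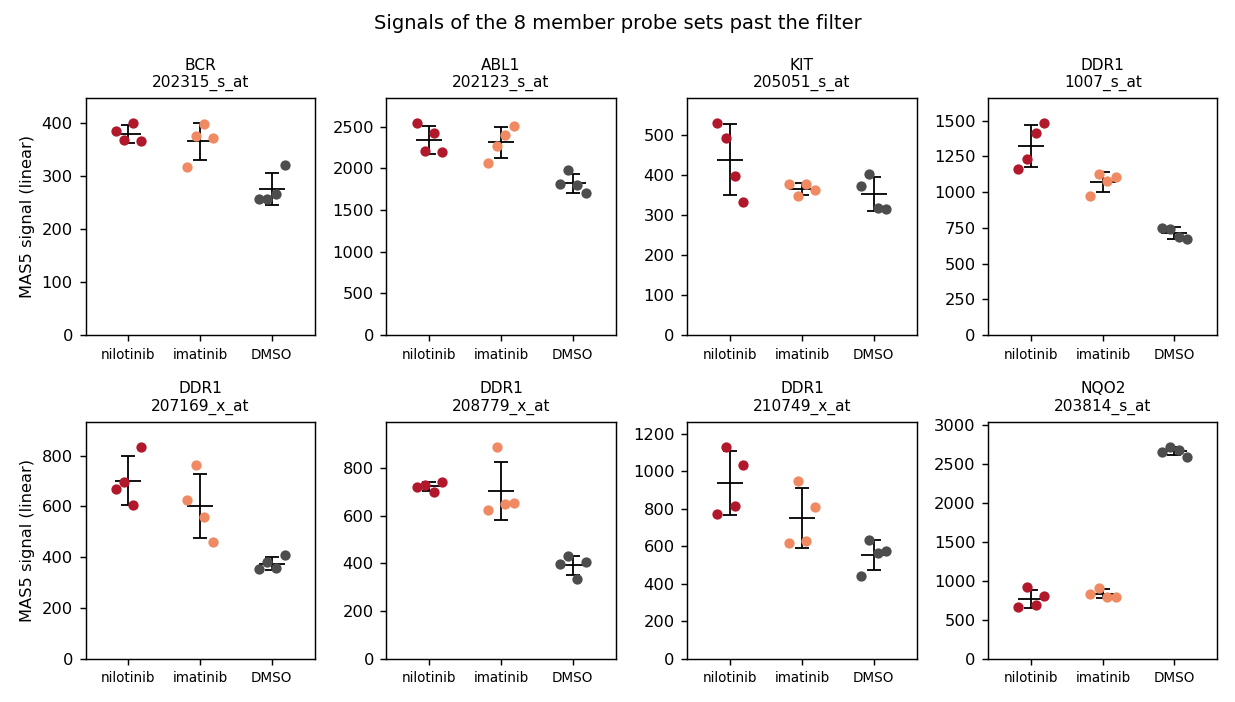
Signal of the member probe sets that passed the filter on each array, by group, with the mean and SD of 4 arrays. NQO2 arrays lay at 664 to 916 with nilotinib and 787 to 914 with imatinib, against 2594 to 2716 with DMSO, while ABL1 arrays lay higher with either drug in these deposited values, a sign that turned for nilotinib under median centring.

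NQO2 was the member that fell. Its probe set 203814_s_at had signals of 664, 916, 692 and 809.9 in nilotinib arrays, 837, 914, 787 and 792 in imatinib arrays, and 2653, 2716, 2683 and 2594 in DMSO arrays. No array of either drug came near the DMSO arrays, and the arrays of both drugs overlapped. The mean was 770.5 ± 116 with nilotinib, 833 ± 58.4 with imatinib and 2661 ± 51.8 with DMSO (SD, n = 4 each), so that the DMSO mean was 3.45 times the nilotinib mean and 3.20 times the imatinib mean. The log2 fold change was -1.78 ± 0.10 (SE; limma adjusted p = 4.73e-11) for nilotinib and -1.66 ± 0.10 (adjusted p = 2.16e-10) for imatinib. Among the 13329 probe sets tested it ranked as the 130th lowest fold change with nilotinib and the 91st lowest with imatinib. Over 28 alternatives of the processing it ran from -2.30 to -1.70 for nilotinib and from -1.89 to -1.57 for imatinib, called in each of them. NQO1, the closest relative of NQO2 and also a quinone reductase, was lower as well, at 642 ± 39.2 with nilotinib and 743 ± 50.0 with imatinib, against 1105 ± 32.8 with DMSO. Its log2 fold change was -0.77 ± 0.09 (limma adjusted p = 1.06e-06) for nilotinib and -0.56 ± 0.09 (adjusted p = 6.21e-05) for imatinib. The difference in size between NQO2 and NQO1 was not tested.

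The fusion partners were both slightly higher with either drug in the deposited values, a direction that turned for nilotinib under median centring. BCR, whose protein is a GTPase-activating protein and serine kinase, had signals of 384, 366, 399 and 365 in nilotinib arrays, 316, 375, 397 and 370.2 in imatinib arrays, and 256, 257, 266 and 319.7 in DMSO arrays for probe set 202315_s_at. Nilotinib arrays all lay above the DMSO arrays, whereas the lowest imatinib array lay just below the highest DMSO array. The log2 fold change was 0.45 ± 0.13 (SE; limma adjusted p = 0.00916) for nilotinib and 0.39 ± 0.13 (adjusted p = 0.0297) for imatinib, and the ratio of means was 1.38 and 1.33. The call was lost for both drugs under quantile normalization, with 0.20 (adjusted p = 0.231) for nilotinib and 0.26 (adjusted p = 0.155) for imatinib, under cyclic loess, with 0.21 and 0.28, and scaled to the hybridization controls, with 0.35 and 0.29. For imatinib it was also lost when array 6, 7 or 8 of imatinib or array 9, 10 or 11 of DMSO was left out, with values of 0.35 to 0.38. Median centring, which moves the median of all tested probe sets from 0.17 to -0.35 for nilotinib and from 0.10 to -0.13 for imatinib, gave BCR -0.08 and 0.16, not called.

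ABL1, the tyrosine kinase that the drugs bind in the fusion, had signals of 2539.9, 2213, 2427 and 2191 in nilotinib arrays, 2064, 2274, 2394 and 2510.3 in imatinib arrays, and 1808, 1980.4, 1796 and 1702 in DMSO arrays for probe set 202123_s_at. All arrays of both drugs lay above all DMSO arrays. The log2 fold change was 0.36 ± 0.08 (SE; limma adjusted p = 0.00102) for nilotinib and 0.34 ± 0.08 (adjusted p = 0.00267) for imatinib, and the ratio of means was 1.29 and 1.27. The call held under quantile normalization and cyclic loess but not under median centring, where the sign turned for nilotinib (-0.16, adjusted p = 0.183) and the value for imatinib was 0.11 (adjusted p = 0.431). Scaled to the hybridization controls, a setting added after the data were seen, ABL1 gave 0.27 (adjusted p = 0.287) and 0.24 (adjusted p = 0.462). The calls of BCR and ABL1 thus depended on the scaling, whereas that of NQO2 did not in the settings tried.

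**Figure D2:**
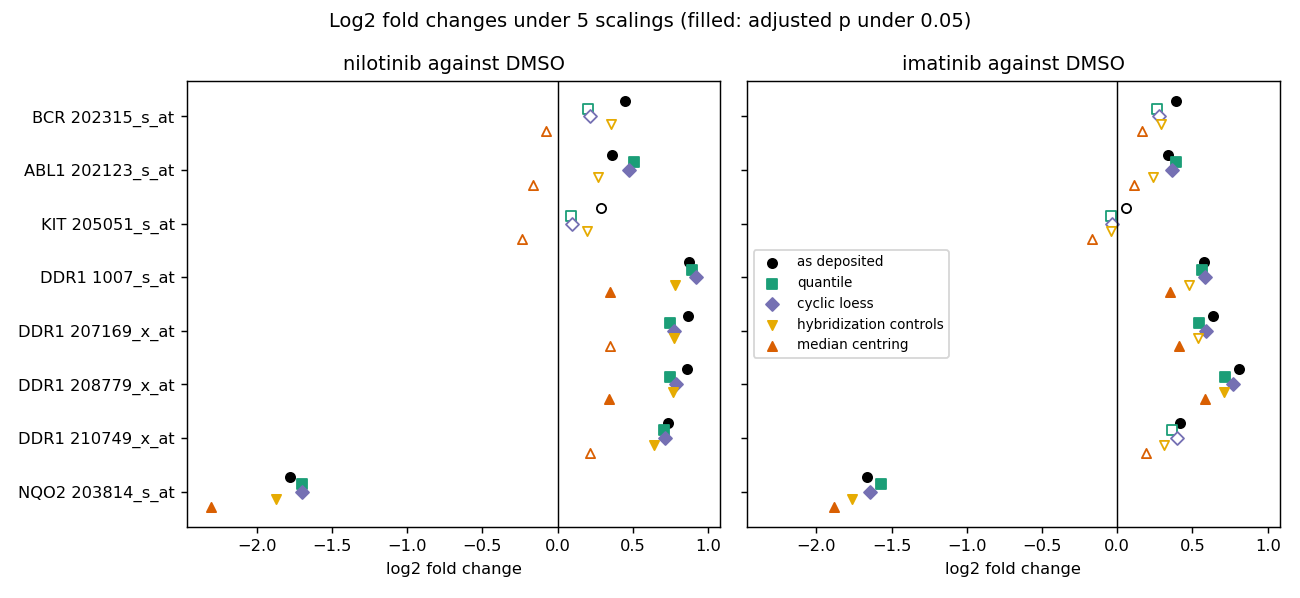
Log2 fold changes of the tested members against DMSO under the deposited values and 4 other scalings, with nilotinib at the left and imatinib at the right, filled where the adjusted p was under 0.05. NQO2 stays between -2.30 and -1.57 in all of them, while BCR, ABL1 and KIT cross 0 under median centring for nilotinib, at -0.08, -0.16 and -0.24.

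DDR1 was higher with both drugs in each of its 4 probe sets, all of which also name MIR4640, a microRNA gene inside the DDR1 span, so the annotation alone does not assign them to 1 gene. Probe set 1007_s_at had signals of 1164, 1229, 1413 and 1480.3 in nilotinib arrays, 972, 1126, 1079 and 1107 in imatinib arrays, and 752, 745, 684 and 669.7 in DMSO arrays. The 3 groups did not overlap. Its log2 fold change was 0.87 ± 0.09 (SE; limma adjusted p = 4.90e-07) for nilotinib and 0.58 ± 0.09 (adjusted p = 9.81e-05) for imatinib. Probe set 208779_x_at had 719, 728, 698 and 741 in nilotinib arrays, 623, 887, 649 and 653 in imatinib arrays, and 397, 429, 335 and 406 in DMSO arrays. Both drugs lay apart from DMSO, and 1 imatinib array lay well above the other 3. Over the 4 probe sets the log2 fold change was 0.74 to 0.87 for nilotinib and 0.42 to 0.81 for imatinib, and the ratio of means 1.69 to 1.87 and 1.35 to 1.79. The smallest changes were those of 210749_x_at, at 937 ± 171 with nilotinib, 750.3 ± 159.5 with imatinib and 554 ± 79.7 with DMSO (SD, n = 4 each), where imatinib and DMSO arrays overlapped and the adjusted p for imatinib was 0.0433. Its imatinib call was kept in 13 of 27 alternatives. Among the losses were the fit without the filter (adjusted p = 0.0659), the 4 other scalings, with 0.19 to 0.40, and the fits without array 6, 8, 9, 11 or 12, with 0.30 to 0.44. The signs of all 4 stayed positive against DMSO under the scalings tried, but sizes and calls did not all hold. Median centring gave 0.21 to 0.35 for nilotinib, with the calls of 207169_x_at (adjusted p = 0.0603) and 210749_x_at (adjusted p = 0.261) lost, and 0.19 to 0.58 for imatinib. Scaled to the hybridization controls, 1007_s_at (adjusted p = 0.104) and 207169_x_at (adjusted p = 0.0810) also lost their imatinib calls. The 4 probe sets read overlapping transcripts and are not replicates; over the 12 arrays their 6 pairwise Pearson correlations were 0.810 to 0.922, which the shared difference between groups contributes to.

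KIT, the receptor for stem cell factor, was not called for either drug. Probe set 205051_s_at had signals of 529, 491, 398 and 333 in nilotinib arrays, 378, 346, 378 and 361 in imatinib arrays, and 373, 403, 317 and 316 in DMSO arrays. The groups overlapped, and 2 nilotinib arrays, both among those with a high actin ratio, were the highest of the 12. The log2 fold change was 0.29 (95% interval -0.03 to 0.60; limma adjusted p = 0.111) for nilotinib and 0.06 (-0.26 to 0.37; adjusted p = 0.796) for imatinib. Without nilotinib array 4 the first value was 0.41, with an adjusted p of 0.0271, and the second turned sign under 4 other scalings, with values of -0.17 to -0.04.

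**Figure D3:**
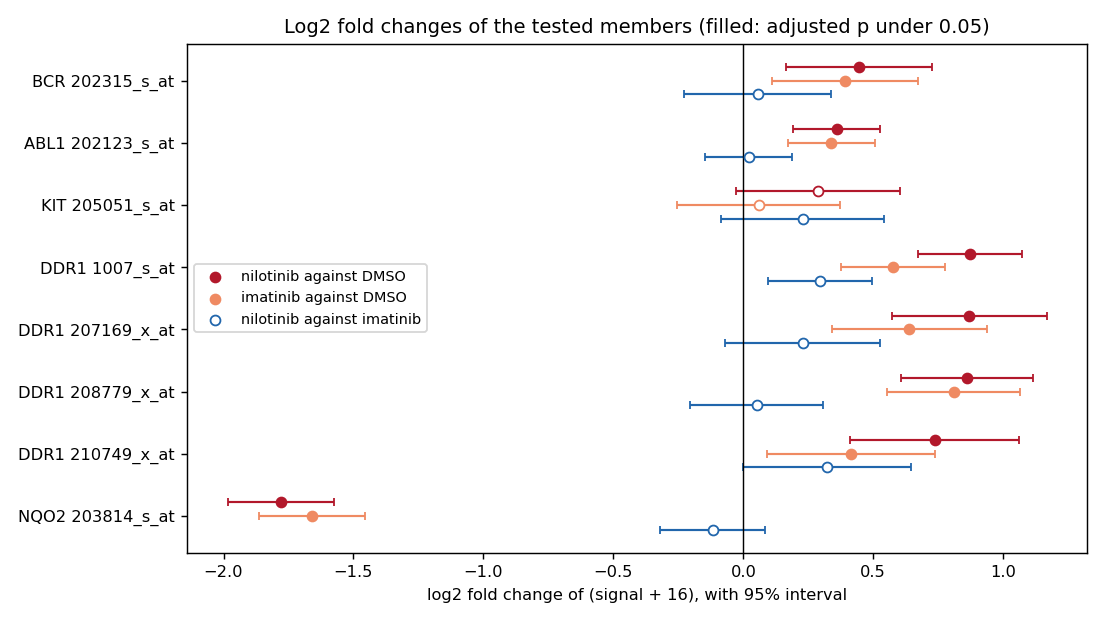
Log2 fold changes of the 8 tested member probe sets with 95% intervals for nilotinib against DMSO, imatinib against DMSO and nilotinib against imatinib, filled where the adjusted p was under 0.05. NQO2 stands alone on the negative side against DMSO, at -1.78 and -1.66, and no value of nilotinib against imatinib is filled.

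The other 7 member probe sets lay below the filter. PDGFRA, a receptor for platelet-derived growth factors, was read by 3 probe sets whose signals ran from 6.55 to 48.9 in nilotinib arrays, from 3.14 to 59.1 in imatinib arrays and from 3.06 to 25.8 in DMSO arrays. None of the 3 exceeded the highest bacterial control on any array, so the transcript was not detectable above that background. PDGFRB, the other receptor of that family, had 19.8, 37.3, 38.1 and 101 in nilotinib arrays, 57.3, 42.3, 72.8 and 9.38 in imatinib arrays, and 11.7, 9.56, 7.29 and 8.71 in DMSO arrays, also never above the highest control.

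ABL2 had signals of 33.8, 134, 171 and 36.0 in nilotinib arrays, 58.6, 111, 68.3 and 91.1 in imatinib arrays, and 38.0, 10.1, 33.3 and 14.4 in DMSO arrays. Nilotinib arrays overlapped DMSO and imatinib arrays did not, and 2 of the 12 arrays exceeded the highest control. CSF1R, the receptor for colony-stimulating factor 1, had 81.4, 189.8, 134 and 125 in nilotinib arrays, 60.4, 71.9, 22.8 and 26.2 in imatinib arrays, and 44.4, 42.8, 78.0 and 38.2 in DMSO arrays. Nilotinib arrays lay above all others, and again 2 of the 12 exceeded the highest control, nilotinib array 3 and DMSO array 9. The other nilotinib arrays lay under it. The second BCR probe set, 217223_s_at, averaged 80.1 ± 52.7 with nilotinib, 70.9 ± 40.4 with imatinib and 67.6 ± 19.3 with DMSO (SD, n = 4 each), with overlapping groups.

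Fitted with limma over all 22215 probe sets without the filter, 3 of these 7 were called for nilotinib against DMSO and 1 for imatinib against DMSO, where 41.5% and 20.4% of all probe sets were called. PDGFRB was at 1.22 (adjusted p = 0.0240) for nilotinib and 1.14 (adjusted p = 0.0576) for imatinib, ABL2 at 1.28 (adjusted p = 0.0334) and 1.33 (adjusted p = 0.0465), and CSF1R at 1.14 (adjusted p = 0.0244) and -0.18 (adjusted p = 0.807). The highest of the bacterial controls was 122 to 268 in nilotinib arrays, 90.9 to 119 in imatinib arrays and 43.6 to 82.0 in DMSO arrays. PDGFRB and ABL2 had higher means with either drug than with DMSO, as these controls did, whereas CSF1R was not higher with imatinib. The part of background in these values was not tested. Between the drugs, CSF1R was the 1 of the 7 called, at 1.32 for nilotinib against imatinib (adjusted p = 0.0492), where 6.08% of all probe sets were called.

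**Figure D4:**
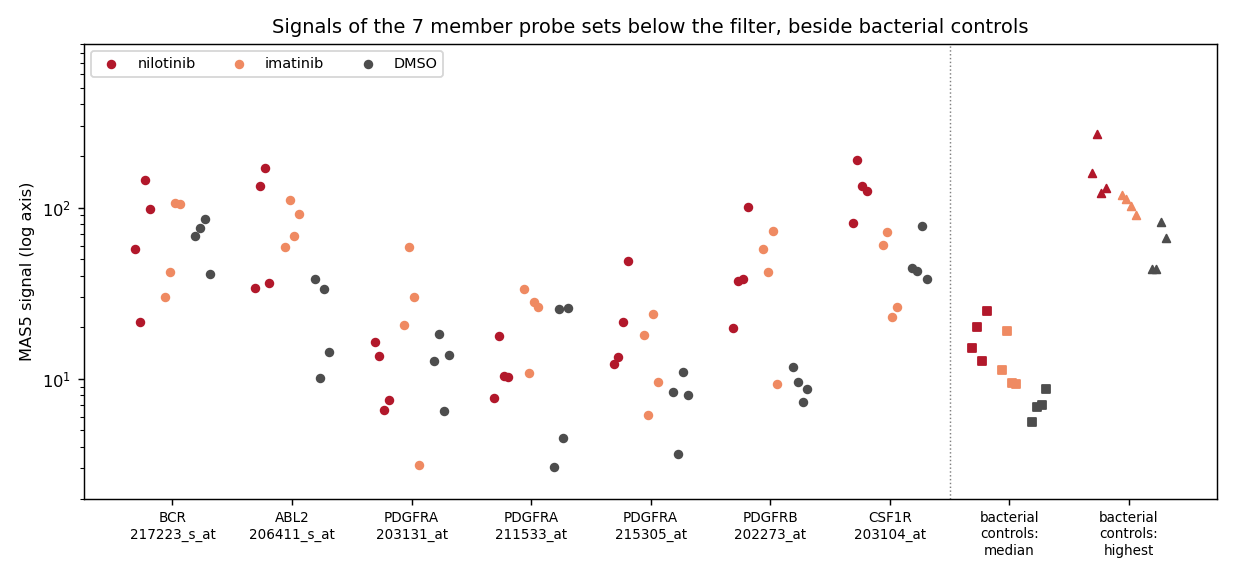
Signals of the 7 member probe sets below the filter on each array, by group, beside the bacterial control signals of the same arrays. PDGFRA and PDGFRB lie under the highest bacterial control on all 12 arrays, and ABL2 and CSF1R exceed it on 2 arrays each.

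Set directly against imatinib, nilotinib had 0 of the 8 tested members called by limma, where 11.5% of all tested probe sets were called. The interval of the log2 difference was -0.23 to 0.34 for BCR, -0.15 to 0.19 for ABL1, -0.32 to 0.09 for NQO2 and -0.09 to 0.54 for KIT. Under median centring, which moves the median of all tested probe sets to -0.24 here, NQO2 (-0.42, adjusted p = 0.00525) and ABL1 (-0.28, adjusted p = 0.0467) were called lower with nilotinib. DDR1 1007_s_at came closest, at 0.29 (95% interval 0.10 to 0.49; adjusted p = 0.0513), and was the 1 member of 8 whose groups did not overlap, as 16.7% of all tested probe sets did not. Its unadjusted p was under 0.05, and 5 alternatives called it: pseudocount 64, the 60th percentile filter, quantile normalization, cyclic loess and the fit without nilotinib array 1. The other 3 DDR1 probe sets were at 0.23, 0.05 and 0.32, with adjusted p of 0.300, 0.815 and 0.178.

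The genes whose log2 signals were most alike to a member over the 12 arrays were picked from 11692 probe sets by Pearson correlation, as a description that the common difference between groups dominates. For NQO2 these were CTSH (r = 0.993), a lysosomal cysteine protease, RSL24D1 (0.992), a ribosome biogenesis factor, and NAV2 (0.992). Their log2 fold changes with imatinib were -1.59, -0.87 and -2.74, and CTSH and NAV2 were at -1.73 and -2.91 with nilotinib. For BCR they were ETHE1 (0.971), a mitochondrial sulfur dioxygenase, PSAP (0.947), the precursor of the saposins, and EXOC7 (0.947), an exocyst subunit. For ABL1 they were ZNF767P (0.949), MZF1 (0.946) and ANK1 (0.944), the ankyrin of the red cell membrane.

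Genes around the members were taken from 6 lists with 63 genes, each by the probe set of highest mean, where 57.5% of 8021 genes were called for nilotinib against DMSO (34.3% higher, 23.2% lower) and 38.2% for imatinib (21.4% higher, 16.8% lower). Of the ligands of these receptors, 7 of 13 were tested, and 4 were called higher with nilotinib, 2 with imatinib and none lower. With nilotinib the collagen chains COL4A2 and COL4A1, ligands of DDR1, were higher by 1.75 ± 0.41 and 1.33 ± 0.31 on the log2 scale (SE), and the growth factors PDGFB and PDGFD by 1.17 ± 0.25 and 1.16 ± 0.26. With imatinib COL4A2 was higher by 1.44 ± 0.41 and PDGFC by 0.69 ± 0.26. The list's median was 1.16 and 0.59, beside 0.15 and 0.09 over all genes. Under quantile normalization, cyclic loess and median centring the nilotinib values were 1.14 to 1.24 for COL4A2, 0.73 to 0.81 for COL4A1, 0.65 to 0.75 for PDGFB and 0.58 to 0.64 for PDGFD. PDGFD was called in none of these 3, COL4A1 was not called under cyclic loess, and the imatinib call of PDGFC was lost under all 4 other scalings. The named ligands are dim, with means of 36.9 to 119 in DMSO arrays. The DMSO means of COL4A2 (36.9), COL4A1 (56.1) and PDGFD (66.1) lay under the filter level of 80.6. These genes passed the filter, which used all 12 arrays, through the drug arrays. The absence of lower calls and the list's median thus depend in part on the filter. The 4 called with nilotinib had signals of 54.4 to 327 in nilotinib arrays, where the highest bacterial control was 122 to 268. The part of background in them was not tested.

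Of the adaptors and regulators through which ABL signals, 14 of 21 were tested, with 6 higher and 4 lower for nilotinib and 2 higher and 3 lower for imatinib. GAB2, the docking protein bound to the fusion through GRB2, fell to 417 ± 254 with nilotinib and 415 ± 97.7 with imatinib, against 1078 ± 90.8 with DMSO (SD, n = 4 each). Its log2 fold change was -1.67 ± 0.41 and -1.37 ± 0.41 (limma adjusted p = 0.00221 and 0.0138). The nilotinib signals of GAB2 ran from 73.6 to 641, the lowest of them under the highest bacterial control of any nilotinib array, 122 to 268. The mean signals with both drugs were nearly equal, and between the drugs GAB2 was not called, at -0.30 (limma adjusted p = 0.662). GAB1, its relative, was higher by 1.46 ± 0.28 with nilotinib and by 0.86 ± 0.28 with imatinib, the second not called under 4 other scalings. The GAB1 mean in DMSO arrays, 78.2, lay under the filter level of 80.6, so the gene passed through the drug arrays. Its signals were 164 to 367 in nilotinib arrays, where the highest bacterial control was 122 to 268. The other GAB1 probe set did not pass the filter. INPP5D, the SHIP1 lipid phosphatase, was higher with nilotinib at 0.77 ± 0.17 and at -0.07 with imatinib, and the direct difference of nilotinib from imatinib was 0.84 ± 0.17 (limma adjusted p = 0.00560), where 12.5% of genes were called between the drugs. Its call against DMSO was lost under cyclic loess and median centring, and that between the drugs when scaled to the hybridization controls (adjusted p = 0.106). GRB2 and CRKL, an adaptor that the fusion phosphorylates, were not called. SHC1 was called higher with both drugs, at 0.38 with nilotinib and 0.41 with imatinib, and PTPN1 lower, at -0.48 and -0.42. Both imatinib calls were lost when scaled to the hybridization controls, and that of SHC1 also under median centring. RIN1 was called higher with nilotinib, at 0.77 ± 0.25, with signals of 178 to 296 that overlapped the range of the highest bacterial control.

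Of the partners of BCR and the small GTPases with their regulators, 12 of 14 were tested, with 2 higher and 5 lower for nilotinib and 2 higher and 3 lower for imatinib. YWHAH, a 14-3-3 protein, was at 2525 ± 158 with nilotinib and 2328 ± 146 with imatinib, against 1234 ± 107 with DMSO. Its log2 fold changes of 1.02 ± 0.08 and 0.91 ± 0.08 were the largest of the list. Other 14-3-3 genes differed in direction in the deposited values. With nilotinib YWHAQ was called higher, at 0.36 ± 0.06, YWHAB was called lower, at -0.41 ± 0.07, and YWHAE was not called. With imatinib YWHAQ was called higher, at 0.34 ± 0.06, but not under median centring or the hybridization controls. YWHAB, by its probe set of highest mean, was at -0.08 with imatinib and not called, but its probe sets disagreed. Another tested YWHAB probe set was called lower with imatinib, at -0.33 (limma adjusted p = 0.00124). The remaining YWHAB probe set was at -0.06 and not called. ABR, the nearest relative of BCR, was at 0.35 and 0.31 and not called. Also called lower with nilotinib were ARHGDIA (-0.44), ARHGDIB (-0.43), RAC1 (-0.37) and RAC2 (-0.32). With imatinib ARHGDIA (-0.36), RAC1 (-0.28) and RAC2 (-0.38) were called lower, but not when scaled to the hybridization controls. Other tested probe sets of ARHGDIA and RAC2 were called with neither drug. Between the drugs ARHGDIB (-0.30) and YWHAB (-0.33) were called lower with nilotinib, calls lost under the hybridization controls.

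Among other proteins that these drugs bind, 4 of 9 were tested. LYN, a SRC family kinase, fell to 887 ± 88.3 with nilotinib and 1133 ± 87.1 with imatinib, against 2286 ± 54.9 with DMSO. Its log2 fold change was -1.36 ± 0.09 and -1.01 ± 0.09, and its 3 probe sets gave the same sign. MAPK11, a p38 kinase, had signals of 34.0 to 178 with nilotinib and 27.7 to 76.4 with imatinib, against 216 to 277 with DMSO. It was called lower, but no fold is given: the highest bacterial control was 122 to 268 in nilotinib arrays and 90.9 to 119 in imatinib arrays, ranges that the nilotinib signals overlapped or lay under and that all imatinib signals lay under, and its 2 other probe sets lay below the filter. CA1, a carbonic anhydrase of red cells, was called higher at 1.99 ± 0.30 and 1.51 ± 0.30. Its DMSO mean of 76.6 lay under the filter level of 80.6, so CA1 passed the filter through the drug arrays. The other CA1 probe set did not pass, and the size of these folds rests on a dim DMSO level. Of the 4 transporters that carry these drugs, 2 were tested, and ABCG2 was higher by 1.45 ± 0.11 with nilotinib and 1.00 ± 0.11 with imatinib. ABCC1 was higher by 0.56 ± 0.10 with nilotinib, a call lost under median centring, and at 0.20 with imatinib, not called. Between the drugs LYN was called lower with nilotinib, at -0.35, and ABCG2 and ABCC1 higher, at 0.46 and 0.36. None of these calls between the drugs held when scaled to the hybridization controls.

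**Figure D5:**
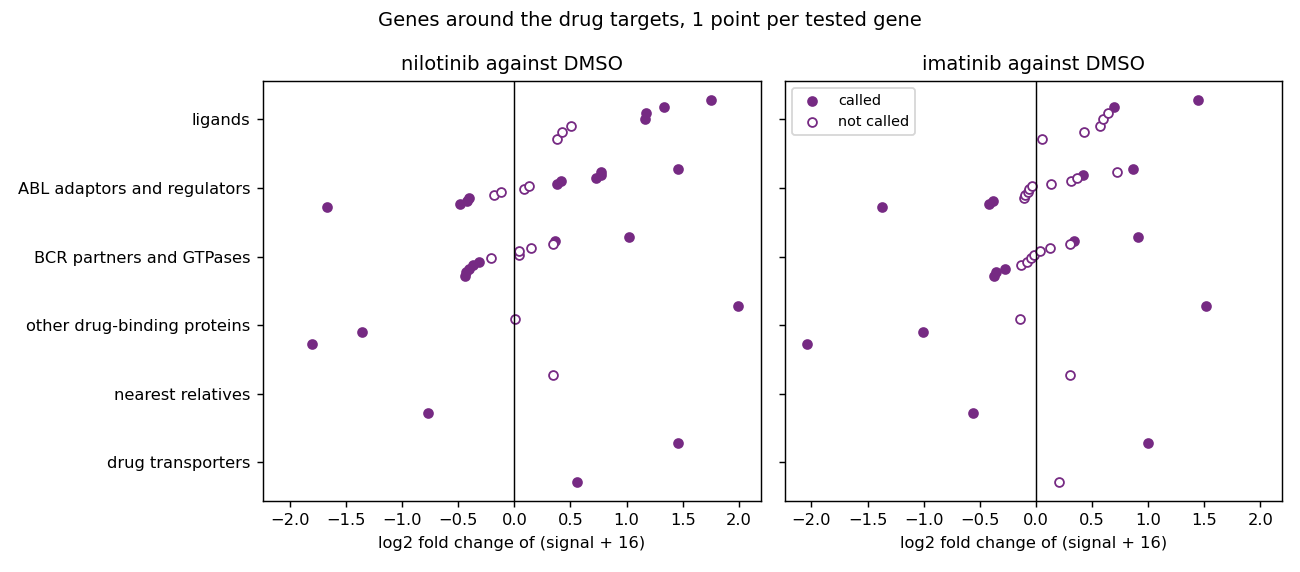
Log2 fold changes of the tested genes of 6 lists around the members, 1 point per gene, with nilotinib against DMSO at the left and imatinib against DMSO at the right, filled where the adjusted p was under 0.05. YWHAH, CA1 and ABCG2 lie to the right of 0 and GAB2, LYN and NQO1 to the left in both panels.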

How the data were processed

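Affymetrix U133A 2.0 arrays were hybridized with biotin-labelled total RNA of K562 cells, per the labels. Each deposited value is a linear intensity that the authors made with MAS5, per the submitters' processing notes; its version is not given in the sources used here. MAS5 subtracts a local background and scales each array by 1 factor. Whether a difference in background remained in dim probe sets was not tested. Detection calls were not used. The number of arrays, 4 per group, limits the precision.

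Signals were used as deposited and taken as log2(signal + 16). After leaving out 62 control probe sets, those with a mean below the 40th percentile were dropped, and the remaining 13329 were fitted in R 4.3.3 (limma 3.58.1) on the 3 groups, using a trend of the variance and Benjamini-Hochberg adjustment separately for each of 3 comparisons. Probe sets were named through the platform annotation: 19064 named 1 gene, 1043 several and 2108 none. Array measures were compared with exact permutation tests (scipy 1.17.1). Figures were drawn with matplotlib 3.10.9. The fit was also run on simulated data with few changed probe sets and no shift between arrays. These arrays differ from that setting, so the run does not bear on how calls depend on the scaling. Groups were taken from the titles.

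Named were all members, up to 4 called genes per list and comparison with the largest change, and the 3 genes most like BCR, ABL1 and NQO2. The members and lists were chosen with earlier results of these data known. In all, 28 alternatives were run, 1 of them added after the data were seen.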

Additional observations from a re-analysis of the deposited data

Results flagged for a closer look

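In 3 of 45 groups of 4 arrays, 1 array lay far from the other 3 relative to the range of the group; chance gives about 5% of groups. BCR 202315_s_at had a signal of 319.7 on DMSO array 12, above the other 3 DMSO arrays, and without that array the imatinib call was kept. DDR1 208779_x_at had 887 on imatinib array 6, the highest of its 12 arrays. CSF1R 203104_at, below the filter, had 78.0 on DMSO array 11, the DMSO array with the highest bacterial control.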

How the results depend on the processing

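NQO2 kept its direction and its call against DMSO in all 28 alternatives for both drugs. The number of members called, 7 for each drug against DMSO, became 3 for nilotinib and 4 for imatinib under median centring. It was 3 and 1 with a minimum log2 change of 0.5, and 2 for imatinib scaled to the hybridization controls. Leaving out 1 array gave 7 to 8 and 5 to 7. With 1 probe set per gene it was 3 and 3, but that setting left out DDR1, whose probe sets name 2 genes. BCR, ABL1 and NQO2 stayed called there. Between the drugs, 0 members became 1 with pseudocount 64, no filter, the 60th percentile, quantile normalization or cyclic loess, 2 under median centring (NQO2 and ABL1 lower) and 0 to 1 with 1 array left out.

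List genes called, 27 for nilotinib, 17 for imatinib and 6 between the drugs, became 10, 5 and 0 with the minimum change, 8 for imatinib and 0 between the drugs with the hybridization controls, 16 between the drugs under median centring and 2 without the 4 arrays of high actin ratio. All probe sets called, 7395, 4727 and 1532, became 2102, 929 and 2 with the minimum change and 4901, 2392 and 119 with the hybridization controls. They were 4666 for nilotinib with 1 probe set per gene, and between the drugs 4019 under median centring, 600 without those 4 arrays and 905 to 1431 with 1 array left out. The share of calls that were higher, 61.2%, 56.3% and 42.2%, was 17.6%, 26.7% and 2.84% under median centring, 47.6%, 51.4% and 37.6% under quantile normalization, 48.5%, 49.3% and 43.6% under cyclic loess and 52.5%, 42.6% and 41.2% with the hybridization controls.

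The sign turned for KIT with imatinib under quantile normalization (-0.045), median centring (-0.17), cyclic loess (-0.036) and the hybridization controls (-0.043), and with nilotinib under median centring for BCR (-0.077), ABL1 (-0.16) and KIT (-0.24). Between the drugs, median centring gave BCR -0.24, ABL1 -0.28, KIT -0.069, and DDR1 -0.0023 (1007_s_at), -0.068 (207169_x_at) and -0.25 (208779_x_at). BCR was at -0.061 under quantile normalization and -0.066 under cyclic loess. Without the 4 arrays of high actin ratio BCR was at -0.0076, ABL1 at -0.088 and KIT at -0.019. With 1 array left out BCR ran from -0.0081 to 0.096 and ABL1 from -0.032 to 0.062, and DDR1 208779_x_at from -0.000314 to 0.166, the lowest of each without imatinib array 5; ABL1 was also below 0 without nilotinib array 1, at -0.019. The cause was not tested. No paired analysis was possible because the arrays are numbered 1 to 12 with no number shared between groups. Signal over background limits the 7 dim members.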
